A study of Mus musculus with 6 samples.

Results

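Open chromatin was described around 6 genes of the naive pluripotency network of mouse embryonic stem cells, Esrrb, Tfcp2l1, Nr5a2, Prdm14, Tbx3 and Zfp42. Each gene was given a fixed window on GRCm39, and every ATAC-seq peak that overlapped a window by at least 1 bp was taken. The windows were chr12:86380000-86600000 for Esrrb, chr1:118530000-118640000 for Tfcp2l1, chr1:136740000-136920000 for Nr5a2, chr1:13150000-13230000 for Prdm14, chr5:119770000-119860000 for Tbx3 and chr8:43710000-43800000 for Zfp42, 770 kb in all. They held 846 of the 1007167 mouse peaks of the 6 libraries. Peaks that overlapped between libraries were merged, which gave 198 regions in the windows of 259376 in all. The windows are set by position and their limits use no peak value, but the genes were picked with earlier results of these data known.

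The cells were E14TG2a, an established mouse embryonic stem cell line, of 3 genotypes: unmodified wild type (WT), a knockout of Alkbh5 (KO), and Alkbh5 del-cIDR, from which a stretch named cIDR was removed. There were 2 libraries of each. ALKBH5 takes the methyl group off N6-methyladenosine in RNA. All cells were grown with 15% FBS, 1000 U/ml LIF, 1 µM of the MEK inhibitor PD0325901 and 3 µM of the GSK3 inhibitor CHIR99021, and 10 µl of spike-in nuclei went into each transposition. Nothing in the labels says that the 2 libraries of a genotype were separate cultures or that a genotype was more than 1 line, so the spread between libraries may be technical and genotype cannot be told apart from line.

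Naive pluripotency is the state of the early epiblast, which LIF together with inhibition of MEK and GSK3 holds in culture. It rests on transcription factors that bind each other's enhancers as well as their own. Esrrb and Nr5a2 encode orphan nuclear receptors, Tfcp2l1 a grainyhead-like factor downstream of LIF and STAT3, and Tbx3 a T-box factor. Prdm14 encodes a PR-domain protein that holds back FGF signalling and DNA methylation. Zfp42 encodes the zinc-finger protein REX1 and is widely used as a marker of the naive state.

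Promoters of 3 members are shown because they hold letters that KLF or POU factors are known to bind. RefSeq tables on GRCm38.p6 gave 250 bases before to 50 after the gene start for 4 of the 6 members, in 6 promoters; Prdm14 and Tbx3 had no entry. Capitals mark each match, on either strand, to GGGNGTGG, which KLF factors bind, or to ATGCAAAT, the octamer of POU factors. The promoters with a match were those of Zfp42 (chr8:43306960-43307259, minus strand), Tfcp2l1 (chr1:118627695-118627994, plus strand) and 1 of 2 of Nr5a2 (chr1:136953581-136953880, minus strand), each written from 5′ to 3′ along the gene.
Zfp42: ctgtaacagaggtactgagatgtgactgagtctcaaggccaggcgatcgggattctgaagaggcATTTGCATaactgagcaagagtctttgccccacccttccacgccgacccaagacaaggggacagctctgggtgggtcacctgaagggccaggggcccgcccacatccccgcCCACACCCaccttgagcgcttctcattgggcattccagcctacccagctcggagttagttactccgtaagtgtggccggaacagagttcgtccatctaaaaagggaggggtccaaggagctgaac
Tfcp2l1: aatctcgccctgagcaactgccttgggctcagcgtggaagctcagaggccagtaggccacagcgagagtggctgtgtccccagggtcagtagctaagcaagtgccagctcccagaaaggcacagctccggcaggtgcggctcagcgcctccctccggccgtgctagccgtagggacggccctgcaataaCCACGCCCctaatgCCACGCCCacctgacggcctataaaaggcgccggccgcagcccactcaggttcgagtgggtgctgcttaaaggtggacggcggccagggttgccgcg
Nr5a2: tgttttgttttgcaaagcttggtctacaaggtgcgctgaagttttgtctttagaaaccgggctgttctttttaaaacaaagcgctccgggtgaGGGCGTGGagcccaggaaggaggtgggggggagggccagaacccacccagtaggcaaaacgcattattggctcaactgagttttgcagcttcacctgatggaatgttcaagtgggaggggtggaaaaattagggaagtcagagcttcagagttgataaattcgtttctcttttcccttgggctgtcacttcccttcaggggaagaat

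The KLF letters were in 3 of the 6 promoters, with 2 copies at Tfcp2l1, against 17.6% of all 32851 promoters of the same length. The octamer was at Zfp42 alone among the 6 and in 1.74% of all. Neither Esrrb promoter nor the other Nr5a2 promoter had a match to any motif searched. No member promoter held TCAAGGTCA (ESRRB and NR5A2; 0.423% of all promoters), TTGTNATGC (SOX and POU; 0.731%), TTCCNGGAA (STAT3; 1.15%), AGGTGTGA (T-box; 1.28%), GGTCTCTAA (PRDM14; 0.256%) or AGGGGGCGC (CTCF; 1.25%). The TFCP2L1 pair, CCAG followed after 6 bases by CCAG, was likewise absent, with 3.44% of all promoters holding it. The Tfcp2l1 promoter held 21 CG dinucleotides and that of Zfp42 11, both Esrrb promoters and the one shown for Nr5a2 held 7, and the other of Nr5a2 held 2, against a median of 7 over all promoters. These promoters are on another build than the peaks and were not placed on them, so regions are given here by position and not as promoter, exon or intron.

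The deposited lists held 150680 to 193905 mouse peaks, most in WT. In them, 99.9983% of the deposited folds and p-values of all peaks solved to a whole number of tags at the summit within 0.1 tags, and this number is called the summit height. The median summit of a list was 17 to 21 tags, so that low regions carry a large counting error. Fold is the authors' value for a peak in its own list. It sets the summit against the local background, and its percentile is the share of the same list at or below it. Lists differ in length, so a difference in percentile between libraries is not read as a change.

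All 6 windows were dense in open regions in every genotype. Regions stood at 37.8 per 100 kb around Tbx3, 27.8 around Zfp42, 25.5 around Esrrb, 24.5 around Tfcp2l1, 22.5 around Prdm14 and 21.1 around Nr5a2, against 9.53 over the assembled chromosomes. Of the 198 regions, 91 (46.0%) were called in all 6 libraries, against 38.3% of all regions. The number called in all 6 was 26 of 56 at Esrrb, 13 of 27 at Tfcp2l1, 11 of 38 at Nr5a2, 9 of 18 at Prdm14, 16 of 34 at Tbx3 and 16 of 25 at Zfp42. Nr5a2 had the lowest and Zfp42 the highest share. A single library held 44 regions (22.2%), against 25.2% of all.

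The Esrrb window held 46 and 41 peaks for WT, 38 and 33 for KO and 37 and 38 for the del-cIDR cells. The Nr5a2 window held 26 and 23 for WT, 21 and 18 for KO and 21 and 18 for the del-cIDR cells. Tfcp2l1 had 19 in both WT libraries and 16 to 18 in the mutants, and Prdm14 had 16 and 19 for WT and 14 or 15 in the mutants. At these 4 genes each WT library had more peaks than each mutant library, while at Tbx3 (22 to 28 peaks) and Zfp42 (20 to 24) WT and mutants overlapped. Taken per 10000 peaks of the list, the 6 windows together held 8.05 and 8.28 for WT, 8.62 and 8.43 for KO and 8.29 and 8.83 for the del-cIDR cells, so relative to list length WT was lowest.

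**Figure D1:**
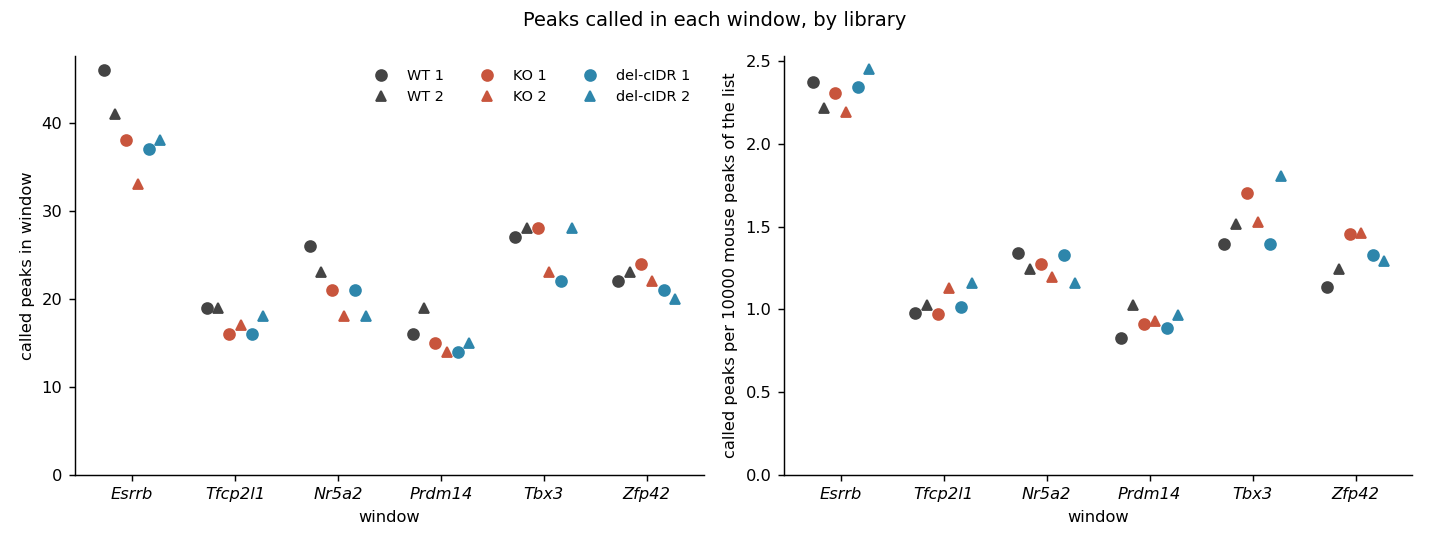
Called peaks in each window (left) and the same per 10000 mouse peaks of the list (right), 1 point per library, with genotype by colour and library by shape. At Esrrb, Tfcp2l1, Nr5a2 and Prdm14 both WT libraries are above the 4 mutant libraries on the left and not on the right.

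By median, the peaks of these genes stood low in their lists when ranked by fold and high when ranked by height. The median percentile of fold over the 6 windows was 43.3 and 36.2 for WT, 34.8 and 38.9 for KO and 37.0 and 30.1 for the del-cIDR cells, all below the middle of the list. The median percentile of height was 68.7 and 66.8 for WT, 70.0 and 72.5 for KO and 68.4 and 67.3 for the del-cIDR cells, all above it. Peaks in the top 10% of their list made up 1.96% to 4.72% of the window peaks by fold and 16.2% to 19.8% by height. The local background, as a multiple of the library's own, had a median of 3.31 to 3.90 in the windows against 1.34 to 1.46 over all peaks. It enters the fold as the divisor, and ranking by height was added after the fold percentiles were seen.

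By gene, the median percentile of fold was 43.6 and 36.9 for WT, 34.2 and 45.4 for KO and 36.8 and 30.8 for the del-cIDR cells at Esrrb. At Nr5a2, the other nuclear receptor, it was 43.6 and 35.5, 30.2 and 48.4, and 40.4 and 37.4 in the same order. Libraries of 1 genotype differed as much as the genotypes did at both genes. At Tfcp2l1 the values were 43.3 and 44.8 for WT, 47.0 and 49.5 for KO and 39.5 and 35.1 for the del-cIDR cells. At Tbx3 they were 37.6 and 32.0, 32.5 and 33.1, and 38.9 and 23.1. Tfcp2l1 had the tallest peaks of the 6 windows by median, at height percentiles of 76.5 to 81.9, and Nr5a2 the lowest, at 41.9 to 54.2. At Prdm14 the fold percentiles were 43.0 and 24.8, 43.5 and 58.0, and 51.1 and 48.6, and at Zfp42 46.0 and 45.0, 31.0 and 29.0, and 31.1 and 23.5. At Zfp42 both WT values lay above the 4 mutant values. With lists of equal length the means at Zfp42 were 39.5 for WT, 31.3 for KO and 26.3 for the del-cIDR cells, while ranked by height they were 73.1, 73.9 and 69.9, with KO no longer below WT.

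**Figure D2:**
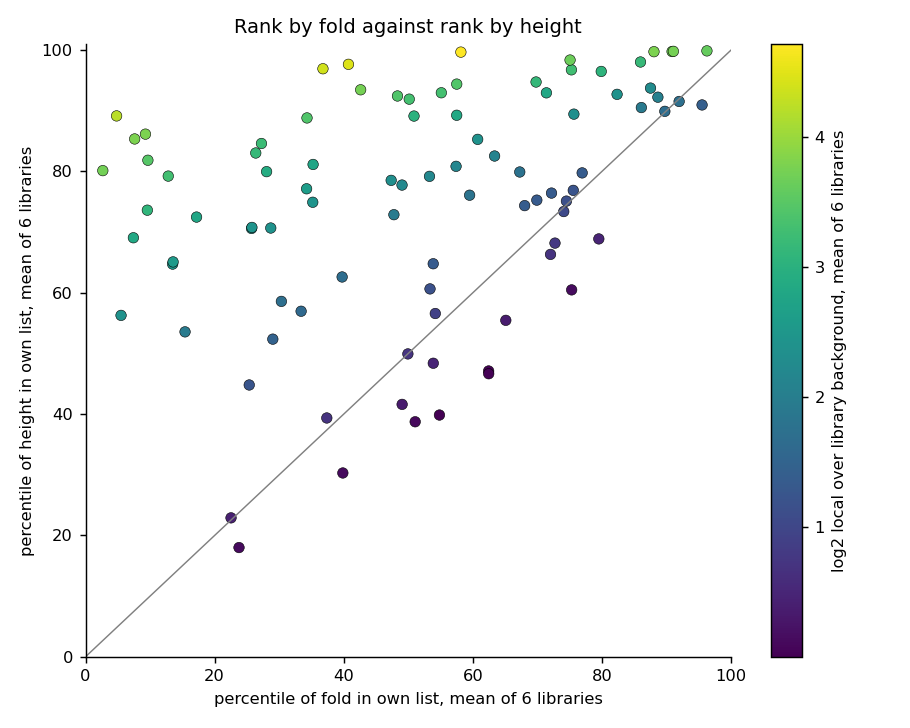
Mean percentile of fold (horizontal) against mean percentile of height (vertical) in the own list, 1 point per region called in all 6 libraries in the windows, coloured by the log2 of local over library background. Points above the diagonal rank higher by height than by fold, and these have the higher local background.

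The Esrrb window shows both kinds of peak. Its tallest region, chr12:86548328-86549056, had summits of 225 and 256 tags for WT, 316 and 246 for KO and 236 and 227 for the del-cIDR cells. It lay at height percentiles of 99.5 to 99.7 but at fold percentiles of 52.6 to 63.4, in a stretch where the local background was 25.8 to 27.0 times that of the library. The region with the highest fold, chr12:86449451-86450204, lay 98.9 kb away, where the local background was 2.3 to 3.2 times that of the library. Its fold percentiles were 99.2 and 96.6 for WT, 95.5 and 96.4 for KO and 92.5 and 92.9 for the del-cIDR cells, on summits of 107 and 104, 88 and 74, and 66 and 65 tags.

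The tallest regions of the other windows were called in all 6 libraries. At Zfp42, chr8:43773550-43774457 held 290 and 287 tags for WT, 453 and 327 for KO and 278 and 239 for the del-cIDR cells, and it also had the highest fold of its window, at percentiles of 94.5 to 97.5. At Prdm14, chr1:13154930-13155795 held 264 and 282, 283 and 249, and 276 and 259 tags in the same order. At Tbx3, chr5:119808389-119809176 held 259 and 272, 298 and 238, and 246 and 261. The genotypes overlapped in raw height at Prdm14 and Tbx3, and relative heights, which are scaled by library, are compared below. At Tfcp2l1 the tallest was chr1:118575620-118576225, with 129 and 163 tags for WT, 196 and 140 for KO and 184 and 187 for the del-cIDR cells. Nr5a2 had no region of that size, and its tallest, chr1:136880348-136881057, held 58 and 70, 76 and 65, and 80 and 87 tags.

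**Figure D3:**
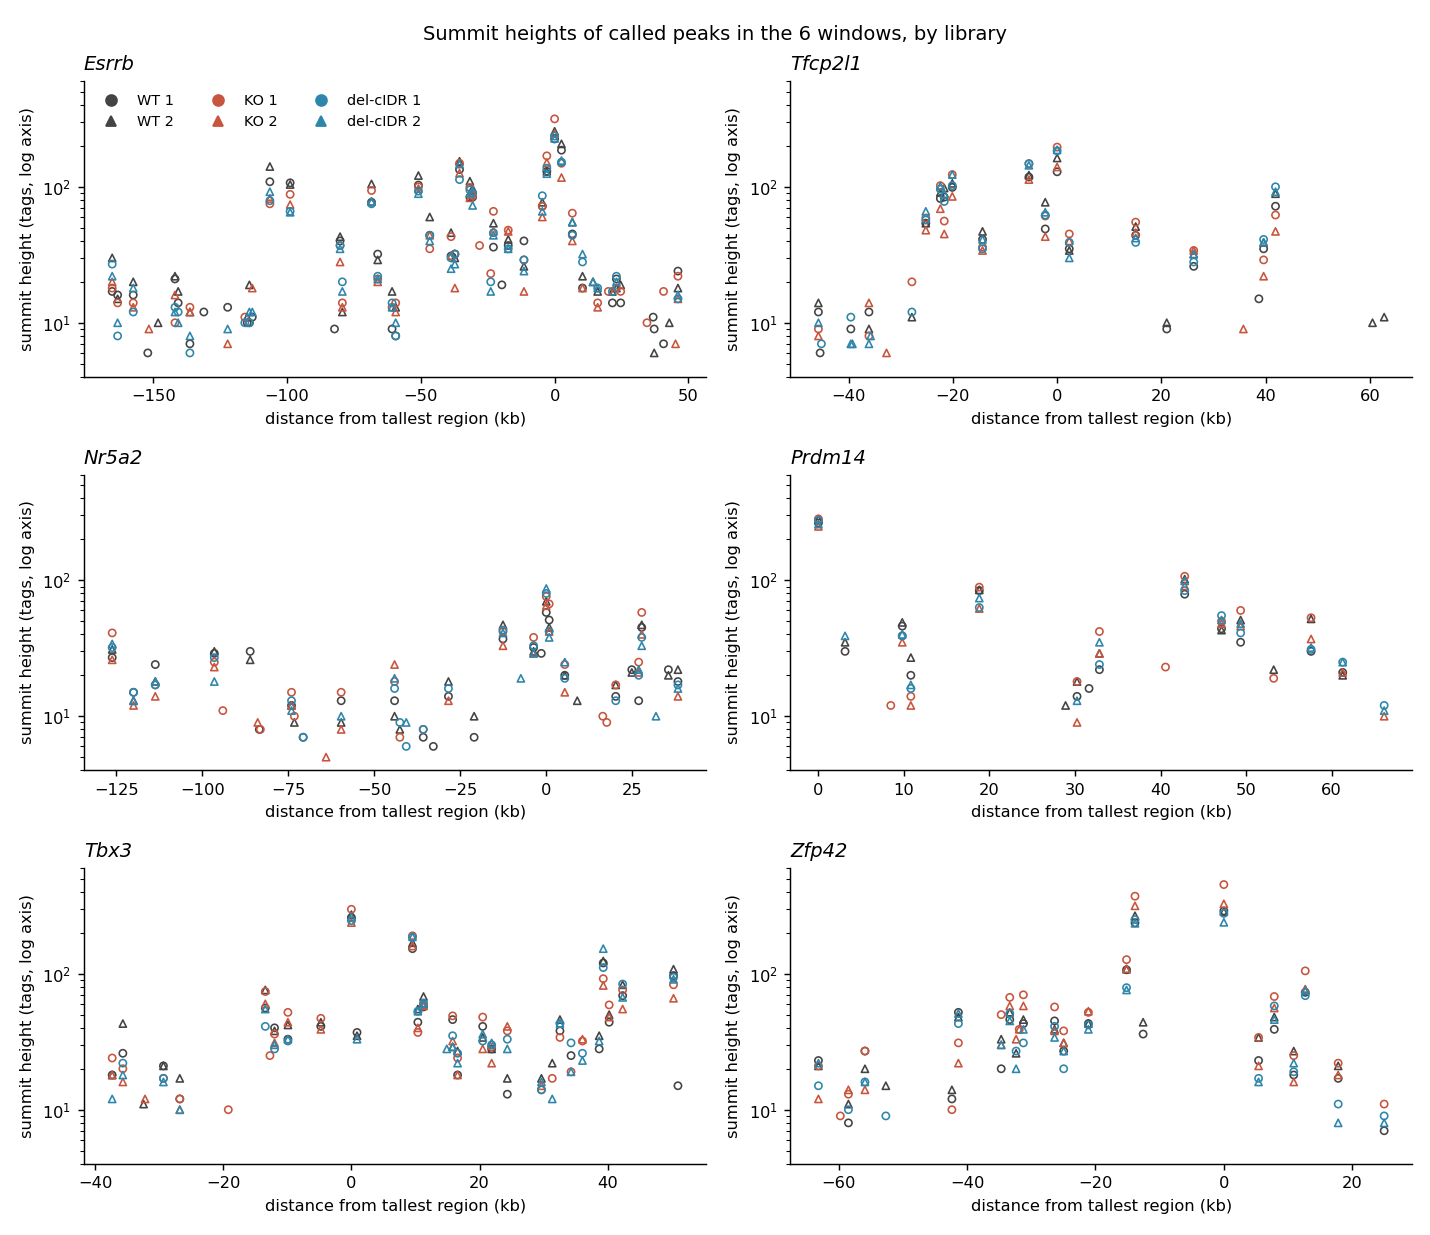
Summit height in tags (log axis) of every called peak in the 6 windows, against the distance in kb from the tallest region of the window; colour gives genotype and shape the library. Zfp42, Prdm14, Tbx3 and Esrrb reach summits above 200 tags and Nr5a2 stays below 100.

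Presence and absence of calls was then compared between genotypes. With 2 libraries against 2, the smallest exact two-sided permutation p is 0.33, so no test was made. Counts from the full lists and from lists of equal length are set beside the share over all regions. Of 128 window regions called in both WT libraries, 14 (10.9%) were called in neither KO library, where the share over all regions was 12.5%. In the other direction 2 of 107 (1.87%) were called in both KO libraries and no WT library, against 3.96%. Both counts are near or below the background, and the WT lists are longer. At equal list length there were 4 of 105 (3.81%), against 8.4% of all, and 5 of 105 (4.76%), against 7.5%. All 4 of the former were among the 14, and both of the 2 were among the 5. With 1 library left out fewer calls are required. Shares over all regions are not given for those counts, here or below, so they show only how the counts move. The 14 became 28 without WT 2, 23 without WT 1 and 22 without KO 1, and the 2 became 16 without KO 2, 10 without KO 1 and 5 without WT 2.

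Against del-cIDR, which was compared with the same WT libraries, 12 of the 128 regions (9.38%) were called in both WT libraries and in neither del-cIDR library, against 9.2% over all regions. In the other direction 4 of 114 (3.51%) had a peak in del-cIDR 1 and 2 but in neither WT library, against 1.92%. With lists of equal length these were 5 of 105 (4.76%), against 4.98% of all, and 8 of 108 (7.41%), against 4.6%, with 5 and 2 in both versions. Without WT 2, WT 1 or del-cIDR 2 the 12 became 25, 21 and 22, and without WT 1, WT 2 or del-cIDR 1 the 4 became 8, 8 and 9. Between the mutants, 3 of 107 regions (2.80%) were called in KO and not del-cIDR, against 7.32%, and 4 of 114 (3.51%) in del-cIDR and not KO, against 7.38%. Without KO 2, KO 1 or del-cIDR 2 the 3 became 20, 10 and 10, and the 4 became 8 to 13 without any 1 of the 4 libraries. A region without a call can still be open below the calling limit.

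The 24 regions behind these counts were small. Their median width was 218 bp, with a range of 134 to 475 bp, where the regions called in all 6 libraries had a median of 575 bp. The 107 window regions called in fewer than 6 libraries had a median of 226 bp, so small size was not particular to the 24. Of the 24, Esrrb had 7, Nr5a2 and Tbx3 5 each, Zfp42 3, and Tfcp2l1 and Prdm14 2 each. Both WT libraries and no mutant library called 8 of 128 regions (6.25%), against 4.57% of all: 4 at Nr5a2, 2 at Esrrb, and 1 each at Tfcp2l1 and Zfp42. The reverse, all 4 mutant libraries and no WT library, was 1 region of 96 (1.04%), at Tbx3, against 0.491%. With lists of equal length these were 3 of 105 (2.86%), against 2.21%, and 2 of 92 (2.17%), against 1.65%.

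At Nr5a2, the WT-only region chr1:136794547-136794701 had summits of 30 and 26 tags and fold percentiles of 87.0 and 77.9. It was the peak with the highest fold of the window in WT 1 and was only 155 bp wide. A second, chr1:136916123-136916284, had 22 and 20 tags for WT. Both kept the pattern with lists of equal length. The others, chr1:136905507-136905640 with 22 and 21 tags and chr1:136859620-136859839 with 7 and 10, did not.

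At Tbx3, the region found in the mutants, chr5:119844723-119844986, held 32 and 33 tags for KO and 26 and 23 for the del-cIDR cells. Its fold percentiles were 4.5 and 17.8 for KO and 0.37 and 0.06 for the del-cIDR cells, the latter at the bottom of their lists. With lists of equal length this region stayed a KO region and was no longer one of del-cIDR. A pair of Tbx3 regions was called in WT and KO and in no del-cIDR library, also with lists of equal length. These were chr5:119848956-119849090, with 44 and 50 tags for WT and 59 and 48 for KO, and chr5:119803906-119804120, with 41 and 44 for WT and 47 and 39 for KO. Fold percentiles were 17.5 to 38.4 at the former and 3.3 to 4.7 at the latter. In raw tags, WT and KO heights overlapped at both. Raw tags are not adjusted for differences between libraries, and relative height was computed only for regions called in all 6 libraries.

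At Zfp42, chr8:43761347-43761511 was called in WT only, at 36 and 44 tags, 12.6 kb from the tallest region of the window. Its fold percentiles were 0.3 and 1.1, at the bottom of both lists. The region chr8:43741989-43742276 was called in KO only, at 39 and 39 tags, with fold percentiles of 0.4 and 2.9. Both kept their pattern with lists of equal length. At Esrrb, chr12:86407769-86408176 was called in both other genotypes and not in KO, at 14 and 17 tags for WT and 12 and 10 for the del-cIDR cells, also with lists of equal length. At Prdm14, chr1:13158385-13158571 had 30 and 35 tags for WT and 39 for del-cIDR 2, and no call in KO or del-cIDR 1. Its fold percentiles were 0.04 and 0.12 for WT and 0.29 for del-cIDR 2. At Tfcp2l1, chr1:118596805-118597076 was WT-only with 9 and 10 tags, and these last patterns at Prdm14 and Tfcp2l1 were lost with lists of equal length.

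Heights were compared at the 91 regions called in all 6 libraries, 75 of them outside the Zfp42 window. Relative height is log2 of the summit tags less the median of such regions on 16 autosomes of the same library. Chromosomes 6, 8 and 11 were left out of that median. A change common to the whole genome does not show on this scale, and the spike-in was not used. Over all 99216 such regions, the median of KO minus WT was 0.13 and that of del-cIDR minus WT 0.01.

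KO summits were a little higher than WT summits over the windows, by a median of 0.20 ± 0.015 log2 (SD of the 4 differences between single libraries), which is 0.07 above the median of all regions. The 4 differences share libraries and are not independent, so this SD, here and below, is no measure of the error of the median. Scaled to regions within 5 Mb the median was 0.12, and without KO 1 it was 0.24. KO was above WT with no overlap and by at least 0.5 log2 at 18 of 91 regions (19.8%), against 16.7% of all, and below at 4 (4.40%), against 9.88%. Without the size minimum the counts were 46 (50.5%) and 12 (13.2%), against 40.6% and 20.6%. Of the 18, 7 were at Zfp42, 5 at Esrrb, 2 each at Prdm14 and Tbx3, and 1 each at Tfcp2l1 and Nr5a2. Scaled to the median of the own chromosome, the 18 became 11, for which no share over all regions is given. Without Zfp42, 11 of 75 regions (14.7%) were above WT by this rule, below the share over all, and the median was 0.17, or 0.04 above that of all regions.

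Del-cIDR summits differed from WT by a median of -0.00086 ± 0.027 log2 over the windows. Del-cIDR was above WT by the same rule at 2 of 91 regions (2.20%), against 3.94%, and below at 5 (5.49%), against 6.13%. Without the size minimum the counts were 22 (24.2%) and 21 (23.1%), against 22.9% and 21.3%. These shares lie near those over all regions.

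**Figure D4:**
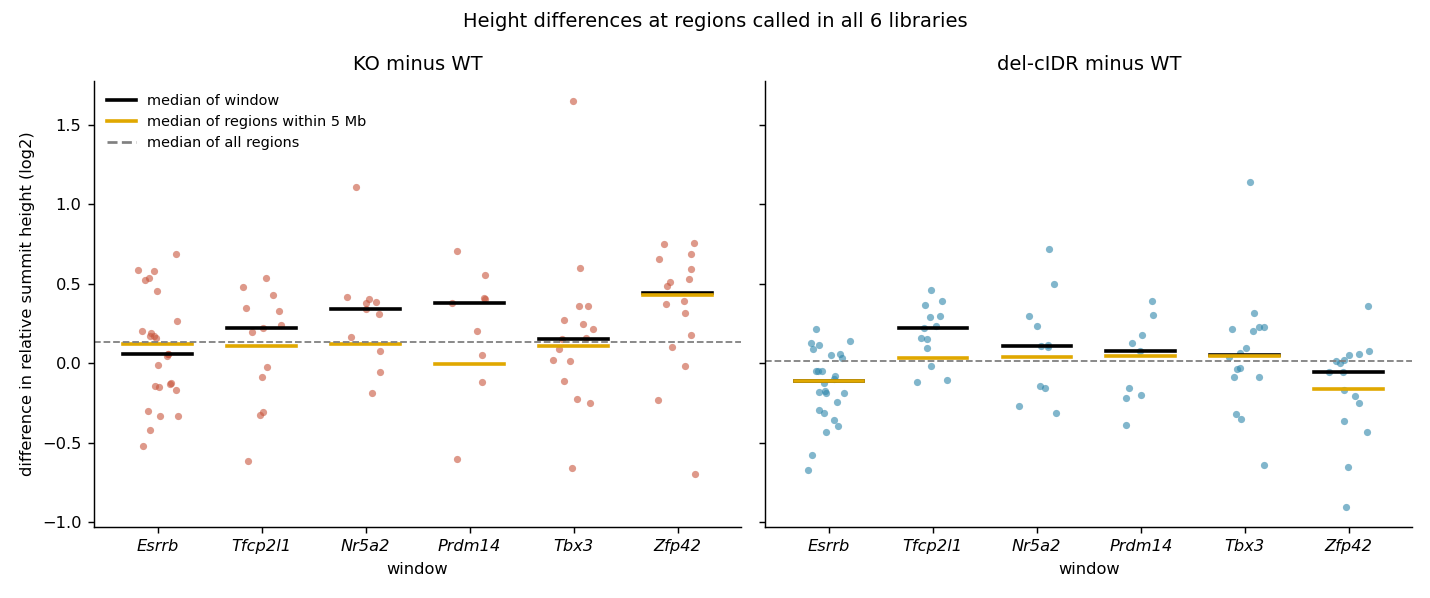
Difference in relative summit height (log2) of each region called in all 6 libraries, KO minus WT (left) and del-cIDR minus WT (right), by window. Black bars are window medians, yellow bars the median of regions within 5 Mb, and the dashed line the median of all regions; at Zfp42 for KO the black and yellow bars nearly coincide.

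Zfp42 had the largest median difference of the 6 windows in KO, 0.44 ± 0.045 log2, and its whole chromosome moved with it. Chromosome 8 had a median of 0.42 for KO and the regions within 5 Mb of the window 0.43. Scaling to neighbours takes their median height in each library off the heights of that library. The result need not equal the window median less the neighbours' median difference. Scaled in this way, the Zfp42 difference was 0.019. At Zfp42 7 of 16 regions were above WT by the rule (43.8%), and 41.7% of the regions of chromosome 8 were. The tallest region, chr8:43773550-43774457, was 0.66 higher in KO than in WT and 0.24 higher when scaled to the neighbours. The next tallest, chr8:43759799-43760524, held 237 and 267 tags for WT, 372 and 316 for KO and 250 and 235 for the del-cIDR cells, 0.69 higher in KO and 0.27 after the same scaling. In del-cIDR these stood at -0.05 and 0.05 relative to WT, and at 0.11 and 0.22 after the same scaling. As far above WT in KO as the tallest and the next tallest, unscaled, lay 9.31% and 8.14% of all regions.

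The other windows had KO medians of 0.38 ± 0.15 at Prdm14, 0.34 ± 0.098 at Nr5a2, 0.22 ± 0.043 at Tfcp2l1, 0.15 ± 0.066 at Tbx3 and 0.06 ± 0.13 at Esrrb. The regions within 5 Mb gave -0.01, 0.12, 0.11, 0.11 and 0.12 in the same order. Scaled to the median heights of those neighbours, Prdm14 gave 0.44, Tfcp2l1 0.28 and Nr5a2 0.25, over 9, 13 and 11 regions, all on chromosome 1, where the median was 0.07. The neighbours of Tfcp2l1 had median relative heights of -0.09 and -0.13 for WT and -0.16 and -0.18 for KO. The scaled value there is therefore larger, although the median difference of the neighbours was 0.11. The Prdm14 median fell to 0.24 without WT 1 or KO 2, and that of Nr5a2 to 0.21 without WT 2. Without WT 2 Tbx3 gave 0.035, and Esrrb ranged from 0.038 without KO 2 to 0.19 without KO 1. In del-cIDR the window medians were 0.22 ± 0.075 at Tfcp2l1, 0.11 ± 0.10 at Nr5a2, 0.08 ± 0.13 at Prdm14, 0.05 ± 0.059 at Tbx3, -0.06 ± 0.090 at Zfp42 and -0.11 ± 0.051 at Esrrb. The Esrrb value equalled the median difference of the regions within 5 Mb, also -0.11, and turned to 0.039 when scaled to their median heights. Unscaled, the Esrrb value was -0.052 without WT 2 and -0.071 without del-cIDR 1. The del-cIDR medians of Nr5a2, Prdm14, Tbx3 and Zfp42 were no larger than their spread or nearly so, and those of the last 3 changed sign when 1 library was left out.

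The region that differed most in both mutants lay at Tbx3, 24.3 kb from the tallest region of the window. At chr5:119832912-119833334 the summits were 13 and 17 tags for WT, 38 and 41 for KO and 33 and 28 for the del-cIDR cells, so that every mutant library was above both WT libraries. Relative height was -1.19 ± 0.15 for WT, 0.46 ± 0.36 for KO and -0.05 ± 0.14 for the del-cIDR cells (SD, n = 2). KO was 1.65 log2 above WT and del-cIDR 1.14, with counting errors of 0.31 and 0.32 if the tags are independent. As far above WT in KO and del-cIDR lay 0.0635% and 0.0383% of all regions. Regions named for their differences, this one among them, were picked for size and for libraries that do not overlap. A small share and the lack of overlap therefore follow in part from the pick. With 1 library left out the differences were 1.39 to 1.90 and 1.03 to 1.25. Both mutants share the WT libraries here. The region lay at height percentiles of 37.6 and 41.8 for WT and 63.7 to 79.3 in the mutants, and at fold percentiles of 24.5 and 36.4 for WT and 54.4 to 74.1 in the mutants.

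A region at Tbx3 went the other way in both mutants. At chr5:119772917-119773285 the summits were 26 and 43 tags for WT, 20 and 16 for KO and 22 and 18 for the del-cIDR cells, lower by 0.66 and 0.64 log2 with counting errors of 0.30 and 0.29. Of all regions, 6.09% lay as far below WT in KO and 3.05% in del-cIDR. The WT libraries differed between themselves, and without WT 2 or WT 1 the difference was -0.38 or -0.94 for KO and -0.36 or -0.92 for the del-cIDR cells. The region with the highest fold at Tbx3, chr5:119858615-119859528, had 97 and 108 tags for WT, 83 and 66 for KO and 94 and 91 for the del-cIDR cells. Its differences from WT were -0.23 log2 for KO and -0.04 for the del-cIDR cells, and 22.0% and 43.0% of all regions lay as far below. The tallest region of the Tbx3 window was 0.25 above WT in KO, with no overlap in relative height, and 0.04 above in del-cIDR. As far above WT lay 38.9% and 45.9% of all regions.

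Nr5a2 had a region with a like order. At chr1:136836408-136836796 the summits were 13 and 10 tags for WT, 18 and 24 for KO and 16 and 19 for the del-cIDR cells, and all mutant libraries were above WT. KO was 1.11 log2 above WT and del-cIDR 0.72, with counting errors of 0.38 and 0.39. The KO difference was 0.70 without KO 2 and the del-cIDR difference 0.45 without WT 2. As far above WT were 1.05% and 0.997% of all regions. Among all peaks of their own library these summits were at height percentiles of 16.3 to 63.2.

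At Tfcp2l1 the tallest region chr1:118575620-118576225 was 0.43 log2 above WT in KO and 0.46 for the del-cIDR cells, with counting errors of 0.12 and 0.11. Of all regions, 21.8% lay as far above WT in KO and 5.25% in del-cIDR. The neighbouring chr1:118570090-118570933, 5.4 kb away, held 118 and 122 tags for WT, 148 and 113 for KO and 148 and 144 for the del-cIDR cells. It differed by 0.35 and 0.39, and 29.0% and 8.13% of all regions lay as far above WT. In contrast, chr1:118554049-118554505, 21.6 kb from the tallest, was lower in both KO libraries. It held 84 and 98 tags for WT, 56 and 45 for KO and 78 and 89 for the del-cIDR cells, a difference of -0.61 for KO with a counting error of 0.18 and of -0.02 for the del-cIDR cells. The KO difference was -0.66 to -0.57 with 1 library left out, and 7.11% of all regions lay as far below WT in KO.

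At Esrrb the region with the highest fold, chr12:86449451-86450204, was 0.58 log2 lower in del-cIDR than in WT (counting error 0.16), and -0.43 after scaling to the regions within 5 Mb. Its relative height was 1.64 ± 0.15 for WT, 1.49 ± 0.11 for KO and 1.06 ± 0.017 for the del-cIDR cells (SD, n = 2), and 4.24% of all regions lay as far below WT in del-cIDR. Beside the tallest region, chr12:86550831-86551680 held 186 and 207 tags for WT, 149 and 117 for KO and 152 and 156 for the del-cIDR cells, below WT by 0.33 and 0.24. The tallest region itself, 2.6 kb away, was 0.46 above WT in KO and 0.06 for the del-cIDR cells. Scaled to the regions within 5 Mb, chr12:86550831-86551680 was -0.32 for KO and -0.09 for the del-cIDR cells, and the tallest 0.47 and 0.21. Of all regions, 19.9% lay as far above WT in KO as the tallest and 16.6% as far below as chr12:86550831-86551680. Thus regions a few kb apart differed from WT in opposite directions in KO, by amounts that were not rare over all regions.

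At Prdm14 the tallest region was 0.20 above WT in KO and 0.08 for the del-cIDR cells. The largest KO difference was at chr1:13188049-13188380, with 22 and 29 tags for WT, 42 and 29 for KO and 24 and 35 for the del-cIDR cells, 0.71 above WT with a counting error of 0.27. In KO 7.45% of all regions lay as far above WT. The region chr1:13165890-13166447 was lower in both mutants. It held 20 and 27 tags for WT, 14 and 12 for KO and 16 and 17 for the del-cIDR cells. It was lower by 0.60 and 0.39 with counting errors of 0.35 and 0.33, and without WT 2 the del-cIDR difference was -0.26. Of all regions, 7.40% lay as far below WT in KO and 10.99% in del-cIDR. In contrast, chr1:13202295-13202687 was higher in both mutants. It held 44 and 43 tags for WT, 50 and 48 for KO and 55 and 51 for the del-cIDR cells. It was 0.41 and 0.39 above WT without overlap in relative height, with counting errors of 0.21 for both. As far above WT lay 23.5% and 8.07% of all regions. At Zfp42, chr8:43791646-43791979 held 17 and 21 tags for WT, 22 and 18 for KO and 11 and 8 for the del-cIDR cells. It was 0.90 lower in del-cIDR than in WT, with a counting error of 0.41, and 0.594% of all regions lay as far below. The KO libraries there overlapped WT in tags and were 0.32 above in relative height, which turned to -0.11 when scaled to the regions within 5 Mb; the del-cIDR difference was then -0.73.

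**Figure D5:**
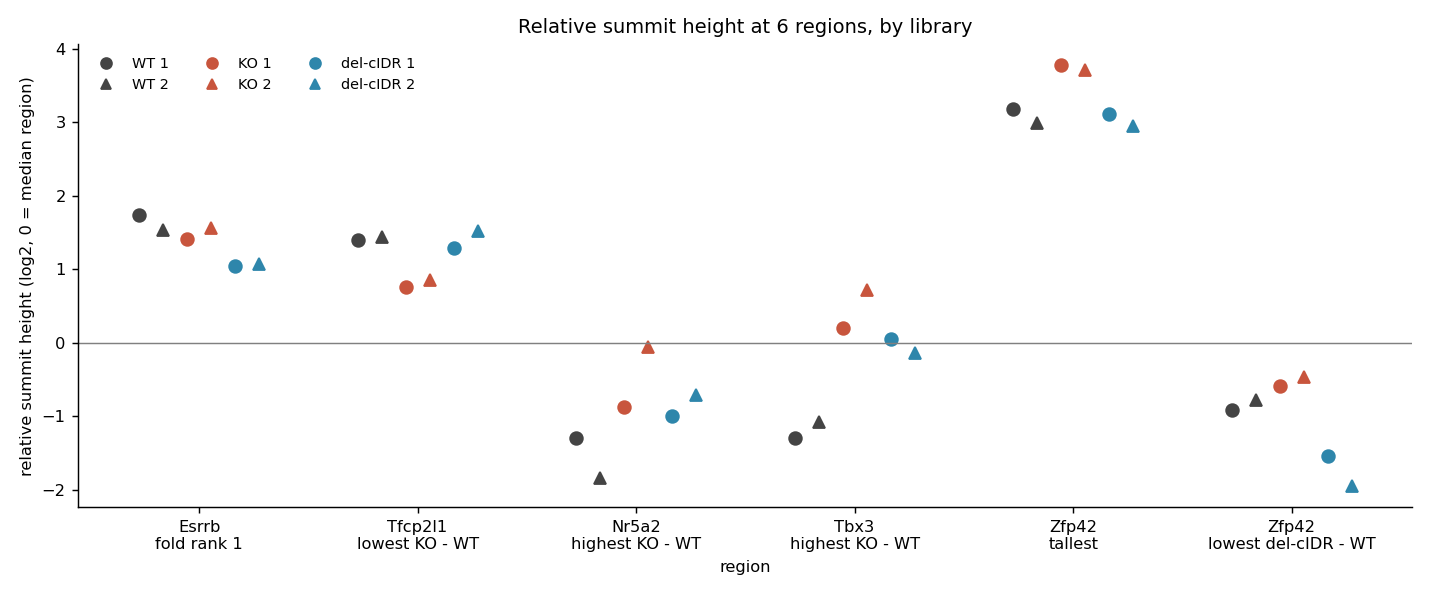
Relative summit height (log2, 0 is the median region of the library) at 6 regions, 1 point per library; each region is named by its gene and by what it was picked for. All 4 mutant libraries lie above both WT libraries at the Tbx3 and Nr5a2 regions, and both del-cIDR libraries below the other 4 at the Esrrb region and the last Zfp42 region.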

How the data were processed

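ATAC-seq peaks of 6 libraries were used, 1 list per library and none pooled. The tools named, per the submitters' processing notes, are MACS2, BWA, fastp, featureCounts, Picard and SAMtools, with GRCm39 as the build. For their versions and settings, and for any shift of reads to the cut site: not given in the sources used here. The deposited columns are a score (10 times −log10 q), a fold (ratio of summit to local background), and −log10 of p and q, with no q above 0.05. Summit heights in tags were solved from the deposited fold, (height + 1) over (local background + 1), and p, a Poisson tail, with scipy 1.17.1 and checked on simulated peaks. Peaks overlapping by at least 1 bp were merged with pandas 2.3.3. Spike-in peaks were kept apart. Counting error covers counting only.

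The members, lists and the scale without chromosomes 6, 8 and 11 were chosen with earlier results of these data known. Regions named were drawn, per window, from the 3 highest by mean fold percentile, up to 5 with a genotype pattern, and the 2 largest non-overlapping differences for each mutant. Not every region so picked is described. Among those left out are the 2 largest such KO differences at Zfp42 (0.76 and 0.75 log2) and at Esrrb (0.69 and 0.59). The largest for del-cIDR at Esrrb (-0.68) is also left out. The 3 highest by height percentile were added after seeing the data. Gene starts on GRCm39 were not used here, so promoter regions, gene lists, cell type markers, likeness to other genes and motifs at summits were not analysed here. The cells' identity was therefore not checked against markers.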

Additional observations from a re-analysis of the deposited data

How the results depend on the processing

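No paired analysis was possible because the results come from no test, with 2 libraries a genotype, so no replicate block was fitted. Differences of same-numbered libraries are given below as values only. Windows of the gene body with 10 kb on either side, and region rules that need gene starts, were not run. Of the alternatives for counts and height differences, 134 stayed within the spread or within 1.5 times, 67 moved and 1 reversed. The 198 regions and the 91 called in all 6 libraries were among those that stayed, at 155 to 204 and 80 to 98.

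At −log10 q of at least 5, WT not KO fell to 6, KO not del-cIDR rose to 9 and del-cIDR not KO fell to 2. With lists of equal length, WT not KO was 4, KO not WT 5, WT not del-cIDR 5 and del-cIDR not WT 8. Leaving out 1 library gave 19 to 28 for WT not KO, 3 to 16 for KO not WT, 16 to 25 for WT not del-cIDR, 6 to 9 for del-cIDR not WT, 4 to 20 for KO not del-cIDR and 8 to 13 for del-cIDR not KO, since fewer calls are required. Other than for equal length, shares over all regions are not given for these settings. Those counts show only how far they depend on the setting.

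KO minus WT over the windows was 0.15 scaled to all autosomes, 0.18 to the own chromosome, 0.12 to regions within 5 Mb (chosen after seeing the data), 0.22 from same-numbered libraries and 0.21 to 0.24 with 1 library left out. Zfp42 gave 0.39, 0.11, 0.019, 0.49 and 0.38 to 0.52 in that order, and 0.50 over summits of at least 20 tags. Tfcp2l1 gave 0.16 scaled to all autosomes, 0.28 to regions within 5 Mb and 0.17 to 0.27 with 1 library left out, Tbx3 0.075 and 0.035 to 0.15 for the last 2, and Nr5a2 0.21 to 0.36 for the last.

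Del-cIDR minus WT over the windows was 0.044 scaled to all autosomes, 0.095 to the own chromosome, 0.099 to regions within 5 Mb, 0.036 over at least 20 tags and -0.025 to 0.032 with 1 library left out. Esrrb gave -0.012 scaled to the own chromosome, -0.049 over at least 20 tags, -0.16 to -0.052 with 1 library left out and, reversed, 0.039 scaled to regions within 5 Mb. Zfp42 gave 0.096 scaled to the own chromosome, 0.11 to regions within 5 Mb and -0.17 to 0.011 with 1 library left out.

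Of the regions that stood apart, KO higher was 46 without the size minimum and 11 scaled to the own chromosome, and KO lower 12 without the minimum. Del-cIDR higher was 22 without the minimum, 4 scaled to the own chromosome, 4 to regions within 5 Mb and 1 over at least 20 tags; del-cIDR lower was 21, 3 within 5 Mb and 3 over at least 20 tags. Counts on other scales, or over at least 20 tags, are given without shares over all regions and show only the move. Causes of these moves were not tested beyond the construction named.

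Among percentiles of fold, 40 alternatives moved and 50 did not; ranked by height, the window medians were 45.4 to 81.2, against 27.3 to 50.8 by fold.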
